A study of Mus musculus with 33 samples.

Results

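The loss of HP1γ from cells that already lacked HP1α and HP1β was followed by RNA-seq in mouse embryonic stem cells (ESCs). The comparison holds 6 of the 33 libraries of the series, chosen by genotype alone: 3 libraries labelled as the triple knockout (TKO, HP1{beta}/{gamma}/{alpha}TKO) and 3 labelled as the double knockout of HP1α and HP1β (DKO, HP1{beta}/{alpha}DKO). Both groups therefore lack HP1α and HP1β, and HP1γ is the paralog that separates them. Beside them stand 6 libraries with HP1α and HP1β present, 3 labelled HP1{gamma}KO (γKO) and 3 labelled WT. These WT libraries, titled NK, are the set deposited with the TKO, DKO and γKO, and the other 3 libraries labelled WT, deposited with other double knockouts, were not used here. All 12 are labelled as C57BL/6 ESCs with no treatment or time given. By the study's methods the DKO and the γKO were constitutive CRISPR mutants, while the TKO came from α/β-null cells with floxed HP1γ that were transfected with Cre. Deletion of HP1γ, the difference between cell lines and Cre transfection thus cannot be told apart in the step from DKO to TKO. The same holds where this step is set against the γKO, in which HP1γ was lost constitutively and without Cre.

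HP1 proteins read methylated lysine 9 of histone H3 (H3K9) through a chromodomain and dimerize through a chromoshadow domain, which also recruits partners such as the H3K9 methyltransferases. Mammals have 3 paralogs, HP1α (encoded by Cbx5), HP1β (Cbx1) and HP1γ (Cbx3). They are known for compacting heterochromatin and silencing repeats, and HP1γ is also found over transcribed genes. Germline genes that ESCs keep silent are also bound by the non-canonical Polycomb complex PRC1.6, through its MGA-MAX and E2F6 subunits. The study states that HP1 associates with members of this complex, and reports HP1γ together with SETDB1 at selected germ cell genes.

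For the constitutive knockouts each paralog was targeted by a pair of guides on either side of the deleted stretch. In the TKO, HP1γ was instead deleted by Cre from a floxed allele made by CRISPR gene targeting. The guides are given 5′ to 3′ in lower case, without the PAM.
HP1α upstream: ctcgccagttctgccgagat
HP1α downstream: ggctgagtgagaactagtag
HP1β upstream: tactaggaaagtctagcgat
HP1β downstream: tcttgcatagaagcctaggc
HP1γ upstream: gaggtgcttacactggatca
HP1γ downstream: tatgatagccttgccgagcg
Neither HP1γ guide had a match on either strand in the 8 Cbx3 transcripts of GENCODE M21, nor either HP1α guide in the 4 Cbx5 transcripts. The upstream HP1β guide matched 1 of 5 Cbx1 transcripts and the downstream guide matched none.

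The 3 paralogs themselves were examined first. Levels are given as CPM, counts relative to the library size after scaling by the trimmed mean of M-values (TMM), and are not divided by gene length. Cbx3 measured 63, 66.9 and 68 CPM in the TKO libraries and 209.8, 193 and 173 CPM in the DKO libraries. Changes were tested with edgeR's quasi-likelihood test, with p adjusted over all genes tested. The groups did not overlap, and Cbx3 fell by 2.94-fold (log2 fold change -1.55 ± 0.06 (SE), adjusted p = 7.80e-13). Its mean was 78.5 ± 1.21 CPM (SD, n = 3) in γKO and 184 ± 7.09 CPM in WT, so the TKO and the γKO libraries were low while the DKO libraries were near WT. Cbx1, already deleted in the DKO, measured 44.8, 46.1 and 50.6 CPM in the TKO libraries and 100.3, 101 and 98.1 CPM in the DKO libraries, a further fall (log2 fold change -1.09 ± 0.05 (SE), adjusted p = 9.27e-12) below a WT mean of 456 ± 9.62 CPM, though Cbx1 was not called with total counts alone (-0.82), with 10 counts required in every library (-0.98) or with upper-quartile scaling (-0.99). Cbx5 measured 284, 285 and 294 CPM in the TKO libraries and 208, 206 and 215 CPM in the DKO libraries, which did not pass the fold threshold (log2 fold change 0.44 ± 0.03 (SE), adjusted p = 3.52e-09), against 504 ± 6.25 CPM in WT. Transcripts of deleted genes were thus lowered and not absent. The counts are per gene and do not show which exons remained.

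Total counts were 17330936 to 21351305 in the TKO and 19714459 to 24423041 in the DKO. The TKO libraries also stood apart as a group in their makeup. They detected 24975 to 25576 genes with at least 1 count, against 21437 to 21906 in the DKO, 21397 to 22013 in the γKO and 21639 to 21673 in WT. The 50 most abundant genes took 9.06 to 9.1% of the TKO counts and 14.9 to 15.2% of the DKO counts. What these differences contributed to single results was not tested.

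The step from DKO to TKO moved a large part of the transcriptome. Of 17425 genes tested, 4431 rose (25.4%) and 2780 fell (16.0%) at an adjusted p under 0.05 with an absolute log2 fold change over 1, 41.4% in all. These percentages are the background for counts over all tested members of a list in this step. The rises were also the steeper changes, with 890 genes past a log2 fold change of 4 against 27 falls of that size. The groups of 3 did not overlap for 4390 of the risen genes and 2751 of the fallen ones, where 82.3% of all genes tested did not overlap. For every called gene whose library values are printed here the TKO and DKO libraries did not overlap, while Rn7sk, Stra8 and mt-Rnr1, which were not called, did.

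With the scaling of the main fit, the excess of rises lay in genes that the DKO hardly expressed. Among the genes tested, 2762 were below the count filter in at least 1 DKO library and 2142 of these rose, but such a gene mostly entered the test through its TKO counts. Of the 14663 genes that reached the filter in all DKO libraries, 2289 rose (15.6%) and 2768 fell (18.9%), and these are the percentages against which counts of members that reached the filter in the DKO are read. Genes that had 10 counts or more in each library split into 2345 rises and 2422 falls at unchanged scaling. Requiring these counts before scaling instead gave 2642 rises and 2007 falls, so the balance depended on the scaling. Genes averaging 5 CPM or more in the higher group split into 2190 and 2166 at unchanged scaling. Scaling by total counts alone gave 5327 rises and 1812 falls, with the median log2 fold change shifted by 0.28.

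Core pluripotency genes leaned down. Of 10 measured, 4 fell and none rose, with a median log2 fold change of -0.93 against 0.03 over all genes tested. On the higher side 1 member had an unadjusted p under 0.05 by edgeR, and DESeq2 called none. Nanog, a homeodomain factor of the ESC network, measured 73.5, 76.4 and 77.5 CPM in the TKO libraries and 399, 397 and 387 CPM in the DKO libraries. The groups were fully apart and Nanog fell 5.25-fold (log2 fold change -2.39 ± 0.04 (SE), adjusted p = 1.72e-17). Sox2, the partner of OCT4 on DNA, measured 122, 124 and 123 CPM in the TKO libraries and 509, 494 and 470.1 CPM in the DKO libraries, a fall of 4.03-fold (log2 fold change -2.01 ± 0.04 (SE), adjusted p = 1.13e-16). Utf1 and Dppa5a also fell, with log2 fold changes of -1.49 and -1.59.

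Pou5f1, which encodes OCT4, measured 457, 472 and 465 CPM in the TKO libraries and 867, 887 and 876 CPM in the DKO libraries. All TKO libraries were lower, but the difference stayed under the fold threshold (log2 fold change -0.93 ± 0.03 (SE), adjusted p = 2.65e-14). The same held for Sall4 at -0.92, L1td1 at -0.74 and Lin28a at -0.64, while Dppa4 was at -0.31 and Dppa2 at 0.51. Markers of the labelled cell type were thus present in every library, and the summed level of the 10 core genes was 1851 to 1895 CPM in the TKO and 3893 to 3984 CPM in the DKO.

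**Figure D1:**
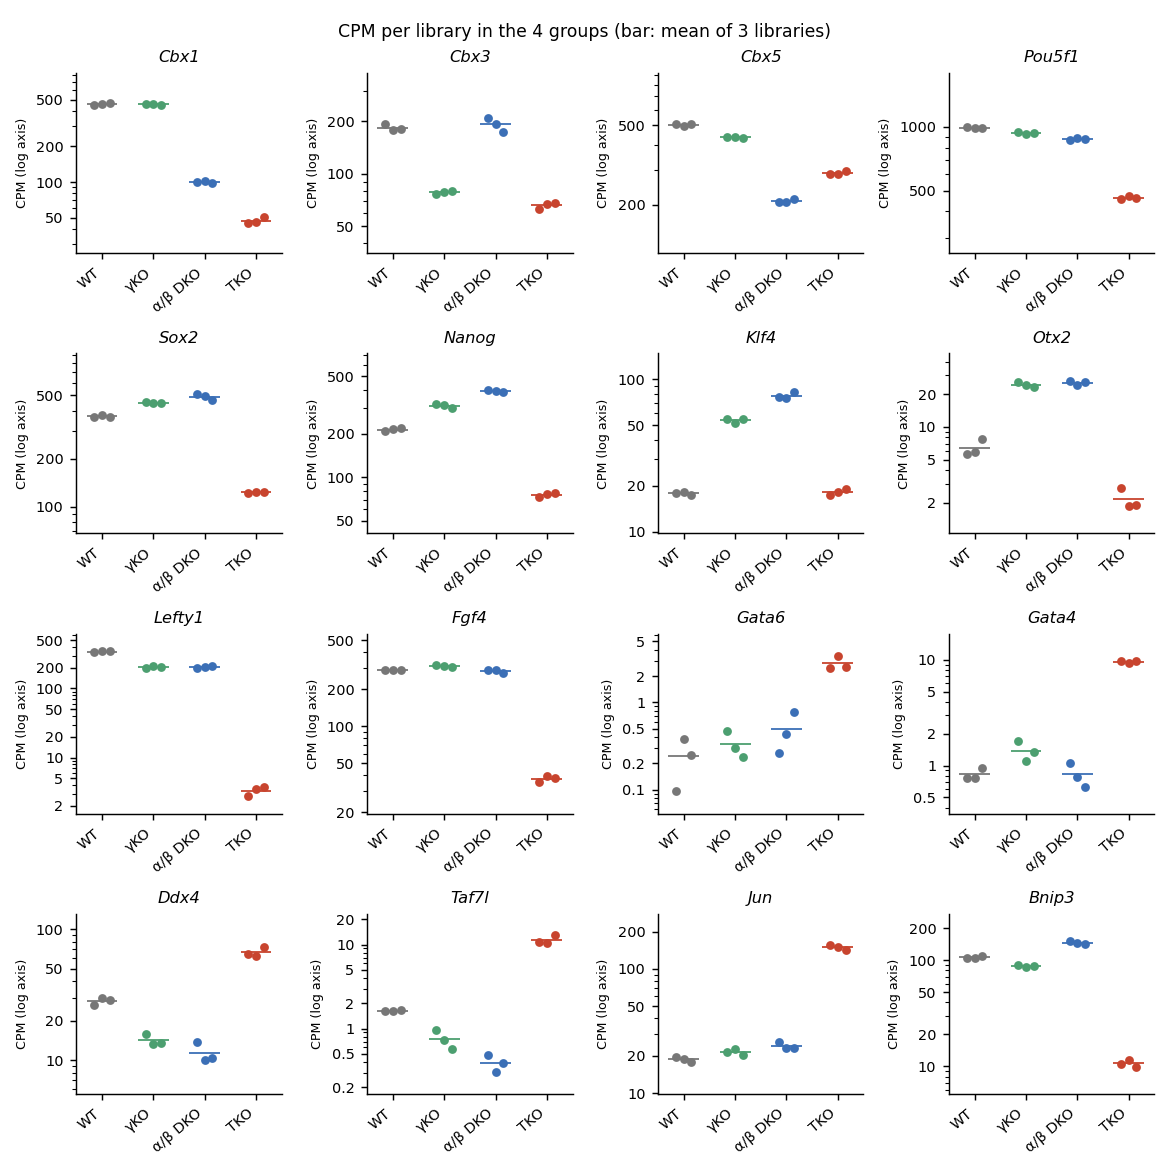
Each panel plots 1 gene as CPM (log axis) in the 3 libraries of WT, γKO, α/β DKO and TKO, with a bar at the group mean. The TKO libraries are the lowest for Nanog, Sox2, Otx2, Lefty1, Fgf4 and Bnip3 and the highest for Gata6, Gata4, Ddx4, Taf7l and Jun; for Klf4 they are level with WT at 18.3 and 17.9 CPM.

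Among naive pluripotency factors, which hold ESCs in the state of the early epiblast, falls outnumbered rises. Of 14 tested, 10 fell and 2 rose (median -1.52). Klf4, a Krüppel-like factor downstream of LIF, measured 17.5, 18.3 and 19.1 CPM in the TKO libraries and 76.9, 75.6 and 82.4 CPM in the DKO libraries, a fall of 4.31-fold (log2 fold change -2.11 ± 0.06 (SE), adjusted p = 1.55e-14). Tcl1 fell by 2.2 on the log2 scale, the steroid-receptor relative Nr0b1 by 2.12, Tfcp2l1 by 1.82, Klf2 by 1.78 and Tbx3 by 1.77. Zfp42 at 0.34 and Esrrb at -0.41 did not pass. The 2 risers, named after their values were seen, were Dppa3 (Stella, 1.25) and Fbxo15 (1.12). Dppa3 measured 69.5, 67.4 and 69.8 CPM in the TKO libraries and 28.7, 27.2 and 30.4 CPM in the DKO libraries, and the groups did not overlap.

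For some of these genes the fall ran from a raised level in the DKO. The Klf4 mean was 78.3 CPM in the DKO, 54 in the γKO, 17.9 in WT and 18.3 in the TKO. Tbx3 had the same order, with 37.2, 16.9, 5.28 and 11 CPM. Nanog and Sox2 went below WT, whose means were 214 and 369.8 CPM.

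Markers of the formative and primed states did not take their place. Of 14 tested, 8 fell and 2 rose (median -1.81). Otx2, which drives the exit from the naive state, measured 2.74, 1.86 and 1.89 CPM in the TKO libraries and 26.6, 24.2 and 25.9 CPM in the DKO libraries. Its fall of 11.9-fold (log2 fold change -3.57 ± 0.13 (SE), adjusted p = 4.66e-13) took it below the WT mean of 6.39 CPM. Tcf15 (-3.02), Pou3f1 (OCT6, -2.76), Fgf5 (-2.7), Lef1 (-2.53) and Zic2 (-2.27) fell with it. Grhl2 (-0.12) and Dnmt3a (-0.92) did not pass, and the 2 risers, named after their values were seen, were Sall2 (1.74) and Sox3 (1.36).

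Nodal signalling showed some of the steepest falls in the comparison. Nodal is a TGF-β family ligand that binds activin receptors with the co-receptor Cripto (Tdgf1), and SMAD2/3 then switch on the feedback inhibitors Lefty1 and Lefty2. Of 15 members tested of 16 listed, 9 fell and 2 rose (median -1.43). Lefty1 measured 2.79, 3.48 and 3.75 CPM in the TKO libraries and 199, 205 and 214 CPM in the DKO libraries. That was a fall of 62.1-fold (log2 fold change -5.96 ± 0.07 (SE), adjusted p = 1.67e-18). Lefty2 measured 9.45, 8.66 and 8.44 CPM in the TKO libraries and 349, 345 and 339 CPM in the DKO libraries, a fall of 39.3-fold (log2 fold change -5.3 ± 0.05 (SE), adjusted p = 1.25e-19).

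Upstream of these targets, Tdgf1 fell by 2.54 on the log2 scale, the type II receptor Acvr2b by 1.98 and the type I receptor Acvr1b by 1.68. Smad4 (-0.15) and Smad3 (0.38), which carry the signal, did not pass. The rises were the receptor Acvr2a (1.42) and the SMAD partner Foxh1 (1.63), both named after their values were seen. Where HP1γ was deleted in WT cells, the median of the 15 members tested was -0.10, with Lefty1 at 207 CPM in the γKO against 343 in WT. The difference between the effects of γ loss in the backgrounds, an interaction term, was called lower for 9 of 15 members, where 15.4% of all genes were, and higher for 2, where 22.4% were.

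Feedback genes of FGF-ERK and LIF signalling fell as well. Fgf4, the ESC's own ERK ligand, measured 35.1, 39.5 and 37.9 CPM in the TKO libraries and 287, 287 and 269 CPM in the DKO libraries, a fall of 7.57-fold (log2 fold change -2.92 ± 0.05 (SE), adjusted p = 4.93e-17). The ERK inhibitors Spry4 (-2.29), Spred2 (-1.28) and Spry2 (-1.07), the phosphatase Dusp6 (-1.09) and the ETS factor Etv5 (-1.98) fell too, which made 6 of 12 members. The receptors Fgfr1 (-0.23) and Fgfr2 (0.40) did not pass. None of this list rose by edgeR or DESeq2, with 3 members higher at an unadjusted p under 0.05. In the LIF list 2 of 7 fell, the STAT3 targets Pim1 (-2.47) and Socs3 (-1.86), and the receptor chain Il6st (-0.47) and the kinase Jak1 (-0.08) did not pass. Pim1 measured 45.3, 53.4 and 48.5 CPM in the TKO libraries and 276, 261 and 268 CPM in the DKO libraries.

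Among WNT targets 6 of 11 tested fell (median -2.04), and for none was a rise called by edgeR or DESeq2, nor was an unadjusted p under 0.05 found on the higher side. Brachyury (T) had 0.228, 0.151 and 0.206 CPM in the TKO libraries and 4.21, 4.003 and 6.18 CPM in the DKO libraries (log2 fold change -4.58 ± 0.35 (SE), adjusted p = 4.68e-09), from a level that was raised in the DKO alone: the WT and γKO means were 0.61 and 0.317 CPM. The WNT antagonist Notum (-3.59), Sp5 (-2.64), Tcf7 (-2.04) and Ccnd1 (-2.27) also fell, while Axin2 (0.09) and Nkd1 (-0.10) did not pass. Members of the BMP list split. Bmp2 (1.47), Msx2 (1.44) and the ligand Bmp4 (1.11) rose, the inhibitor Smad6 (-2.09) and the antagonist Nog (-1.68) fell, and the other 9 of 14 did not pass (median -0.01), with Bmpr1a (0.01) and Bmp7 (-0.04) moving least.

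Immediate early genes, which cells switch on within minutes of stimulation or stress, were mostly higher. Of 15 tested, 10 rose and 2 fell (median 1.48), and 4 of them had been below the filter in the DKO and mostly entered through their TKO counts. Among the 11 that reached the filter, 6 rose and 2 fell (median 1.11). Jun, a subunit of AP-1, measured 155, 151 and 143 CPM in the TKO libraries and 25.7, 23.1 and 22.9 CPM in the DKO libraries, a rise of 6.21-fold (log2 fold change 2.63 ± 0.06 (SE), adjusted p = 5.72e-16). The orphan receptor Nr4a3 measured 43, 40.8 and 41.1 CPM in the TKO libraries and 0.107, 0.129 and 0.0974 CPM in the DKO libraries (log2 fold change 8.45 ± 0.16 (SE), adjusted p = 2.16e-16). Egr2 (4.29), Fosb (3.24) and Egr3 (3.04) rose with them. Ier3 (-3.25) and, named after its value was seen, Myc (-1.53) fell, and Ier2 (0.16) and Nr4a1 (-0.56) did not pass. In the γKO the median of the 12 members tested was 0.04.

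Endoderm regulators rose from near background. Gata4 measured 9.82, 9.22 and 9.8 CPM in the TKO libraries and 1.07, 0.775 and 0.633 CPM in the DKO libraries (log2 fold change 3.53 ± 0.20 (SE), adjusted p = 1.18e-10), and Gata6, the factor that specifies primitive endoderm, 2.51, 3.43 and 2.55 CPM in the TKO libraries and 0.266, 0.43 and 0.779 CPM in the DKO libraries (log2 fold change 2.48 ± 0.36 (SE), adjusted p = 1.08e-05). Sox17 (2.21), Foxa1 (1.92), Pdgfra (1.08) and the endocytic receptor Cubn (4.15) rose as well. Their TKO levels stayed low, at 1.97 CPM for Sox17 and 2.83 CPM for Gata6.

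Genes that secrete the basement membrane of endoderm went the other way or did not pass. Lamc1 measured 129, 135 and 126 CPM in the TKO libraries and 429.5, 414 and 415 CPM in the DKO libraries (log2 fold change -1.71 ± 0.04 (SE), adjusted p = 6.03e-16), Lamb1 (-1.08) and Sox7 (-1.79) fell, and Lama1 (-0.96), Col4a1 (-0.84), Sparc (-0.43) and Col4a2 (-0.39) did not pass. Foxa2, Hnf4a and Afp were too low to test. In all, 7 of 17 tested members rose and 3 fell, 5 of them from below the filter in the DKO, and the median was 0.18. Among the 12 members that reached the filter in the DKO, 2 rose and 3 fell, and the median was -0.52, of the opposite sign. The rest of the list, Dab2 (0.18), Ttr (-0.61) and Amn (0.51), did not pass.

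**Figure D2:**
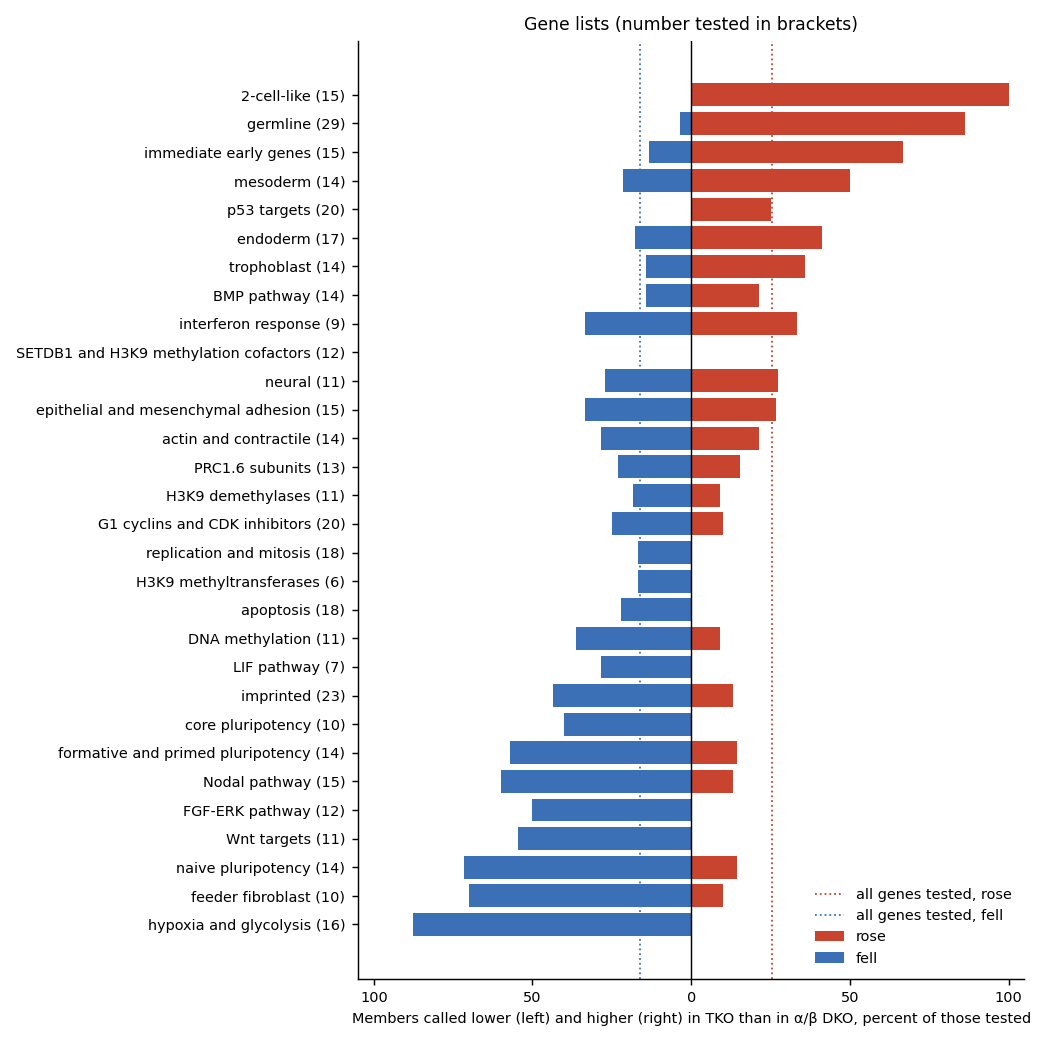
Bars give, for each list with at least 6 members tested (number in brackets), the percent of tested members called higher (right, red) and lower (left, blue) in the TKO than in the DKO. Dotted lines mark the same percentages over all genes tested, 25.4 and 16.0; the hypoxia and pluripotency lists lie past the line on the lower side and the germline and 2-cell-like lists on the higher side, where all 15 2-cell-like members and 7 of 29 germline members were below the filter in the DKO and entered mostly through their TKO counts.

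Markers of other lineages were mixed. In the mesoderm list 7 of 14 tested rose and 3 fell, with 4 from below the filter in the DKO. Of the 10 that reached it, 4 rose and 3 fell (median -0.46). Foxf1 (4.07), Snai2 (3.94), Mesp2 (2.27) and Snai1 (1.61) rose, T, Gsc (-1.92) and, named after its value was seen, Eomes (-1.34) fell, and Kdr (0.25) and Tbx6 (-0.28) did not pass. In the neural list Zic1 (4.33) rose, while Olig2 (-2.34), the neuronal tubulin Tubb3 (-2.02) and Map2 (-1.3) fell. Pax6 (0.45) and Neurod1 (0.58) did not pass, and 3 of the 11 tested were below the filter in the DKO. The 8 that reached it had 0 rises and 3 falls called by edgeR (median -0.20). The trophoblast list had 5 rises among 14 tested, Gcm1 (4.19), Gata3 (2.38), Cyp11a1 (1.74), Tfap2a (1.19) and Elf5 (1.16). Elf5 was named after its value was seen and was not called by DESeq2. All 5 were below the filter in at least 1 DKO library and mostly entered the test through their TKO counts. Of the 9 members that reached the filter in the DKO, 0 rose by edgeR and 2 fell (median -0.84). The falls were Peg10 (-1.62) and Tfap2c (-1.5). Cdx2 (-0.08) and Ascl2 (0.03) did not pass.

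Germline genes rose almost throughout. Of 29 tested members, 25 rose and 1 fell (median 2.26), and of the 22 that reached the filter in all DKO libraries 18 rose and 1 fell. The list's summed level was 599 to 612 CPM in the TKO, 138 to 156 in the DKO, 174 to 183 in the γKO and 197 to 211 in WT. Slc25a31, a sperm ADP/ATP carrier, measured 6.35, 7.35 and 8.93 CPM in the TKO libraries and 0.16, 0 and 0.0974 CPM in the DKO libraries, and the groups did not overlap (log2 fold change 6.45 ± 0.40 (SE), adjusted p = 2.97e-10). Tex101 measured 13.2, 13.7 and 14.1 CPM in the TKO libraries and 0.0533, 0.344 and 0.292 CPM in the DKO libraries (log2 fold change 5.79 ± 0.25 (SE), adjusted p = 3.69e-12).

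Taf7l, a germ cell paralog of a TFIID subunit, measured 10.6, 10.6 and 13 CPM in the TKO libraries and 0.48, 0.301 and 0.39 CPM in the DKO libraries (log2 fold change 4.86 ± 0.23 (SE), adjusted p = 7.53e-12). Sycp1, which forms the transverse filaments of the synaptonemal complex, measured 9.86, 11 and 11 CPM in the TKO libraries and 0.746, 0.689 and 0.828 CPM in the DKO libraries, a rise of 13.9-fold. Rhox13 (3.94) and the piRNA helicase Mov10l1 (3.23) were next in size. Ddx4 (VASA), chosen after its values were seen because its promoter is shown here, measured 64.7, 62.9 and 73 CPM in the TKO libraries and 13.7, 9.94 and 10.4 CPM in the DKO libraries, against means of 14.2 CPM in the γKO and 28.2 in WT. Its rise was 5.88-fold (log2 fold change 2.56 ± 0.10 (SE), adjusted p = 5.00e-13).

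The members that went against the others were few. Meiob, named after its value was seen, fell (-1.29), and Stra8, which licenses entry into meiosis, measured 4.16, 5.29 and 4.65 CPM in the TKO libraries and 5.59, 4.91 and 5.36 CPM in the DKO libraries and did not pass (log2 fold change -0.18 ± 0.17 (SE), adjusted p = 0.316). Tuba3a (0.35) did not pass either. Where HP1γ was deleted with HP1α and HP1β present, 2 of 23 tested members rose and 2 fell (median -0.45), where 2.04% and 3.55% of all genes did. The interaction term was called higher for 24 of 29, against 22.4% of all genes.

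RefSeq promoters (GRCm38.p6) were searched for CACGTG, the E-box bound by MGA-MAX, and for TCCCGC, bound by E2F6, on both strands, where CACGTG reads the same on either strand and the motifs can share at most 1 base. The window ran from 250 bases before the annotated start to 50 after it. CACGTG was in the promoter of 13 of 26 germline list genes with a promoter in the table, against 11.4% of the 12396 tested genes with one and 8.09% of all 27025 genes of the table. Over all genes it was in 13.4% of those that rose, 9.81% of those that fell and 11.1% of the rest. TCCCGC was in 27.5%, 43.6% and 40.5%, and in 42.3% of the germline list. A match is a description of the sequence and was not tested for binding.

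The 250 bases before the start of 4 germline genes that rose show how these motifs lie. They were chosen after the search to show 1 motif (Slc25a31 and Taf7l) or both (Ddx4 and Hormad1, whose log2 fold change was 2.26), and capitals mark the motifs.
Slc25a31 (chr3:40708621-40708870, plus strand): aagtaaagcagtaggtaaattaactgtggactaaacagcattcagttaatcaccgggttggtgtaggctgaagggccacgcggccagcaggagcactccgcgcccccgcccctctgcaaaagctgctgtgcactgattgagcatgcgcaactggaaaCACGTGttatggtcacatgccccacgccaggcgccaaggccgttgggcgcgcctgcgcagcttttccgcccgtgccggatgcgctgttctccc
Taf7l (chrX:134476491-134476740, minus strand): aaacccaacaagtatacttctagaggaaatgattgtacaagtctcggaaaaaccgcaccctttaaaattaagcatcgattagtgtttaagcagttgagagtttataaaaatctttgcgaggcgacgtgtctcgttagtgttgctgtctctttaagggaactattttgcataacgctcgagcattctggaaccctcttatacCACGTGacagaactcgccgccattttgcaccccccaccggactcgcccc
Ddx4 (chr13:112652311-112652560, minus strand): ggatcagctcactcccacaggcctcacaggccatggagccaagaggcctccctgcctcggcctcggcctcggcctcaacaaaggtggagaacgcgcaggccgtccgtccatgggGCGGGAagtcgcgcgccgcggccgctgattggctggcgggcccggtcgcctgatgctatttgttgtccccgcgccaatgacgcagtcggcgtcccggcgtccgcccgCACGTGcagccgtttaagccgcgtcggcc
Hormad1 (chr3:95559427-95559676, plus strand): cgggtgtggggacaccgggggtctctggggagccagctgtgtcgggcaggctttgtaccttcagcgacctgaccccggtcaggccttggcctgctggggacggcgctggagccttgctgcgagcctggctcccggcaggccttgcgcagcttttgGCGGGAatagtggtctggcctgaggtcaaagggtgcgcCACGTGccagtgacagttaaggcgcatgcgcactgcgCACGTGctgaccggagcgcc

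In a list without the HP1 genes, subunits of PRC1.6 did not move as a group: 2 of 13 rose and 3 fell (median -0.05). Mga, its DNA-binding scaffold, measured 1089, 1073 and 1156 CPM in the TKO libraries and 323, 287 and 321 CPM in the DKO libraries, a rise of 3.53-fold (log2 fold change 1.82 ± 0.04 (SE), adjusted p = 1.28e-15). E2f6 (1.11) rose, and Wdr5 (-1.47), Pcgf6 (-1.03) and Ring1 (-1.02) fell. Pcgf6, the defining subunit, measured 46.9, 49.4 and 48.1 CPM in the TKO libraries and 96, 101 and 95.1 CPM in the DKO libraries. L3mbtl2 (-0.05) and Hdac2 (0.15) did not pass.

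Genes of the 2-cell-like state, a rare ESC state resembling the newly activated embryo, appeared from almost nothing. All 15 tested of 18 found were below the filter in the DKO and entered the test through their TKO counts, and all rose. Summed over the list, the level was 29.1 to 32 CPM in the TKO, 0.341 to 0.818 in the DKO, 1.05 to 1.37 in the γKO and 0.144 to 0.201 in WT. Zscan4f, a marker of the state, measured 6.12, 5.99 and 6.71 CPM in the TKO libraries and had no counts in the DKO, which makes it at least 43.3-fold higher against a floor of 3 counts per library. Zscan4c (27.6-fold), Zscan4e (21.9-fold), Zscan4b (10.3-fold), Zfp352 (6.13-fold) and Zscan4a (6.46-fold) have such lower bounds too. The smallest differences were in Sp110 (2.37) and Tmem92 (3.41). With zeros replaced by these bounds the median of the tested members was 4.02. Zscan4 and Usp17l genes are near-identical copies, so how reads were shared among them is uncertain.

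Gene families that ESCs do not use gained counts in the same way. Of 43 Hox genes, 37 to 40 had at least 1 count in the TKO libraries and 15 to 23 in the DKO, with summed levels of 79.8 to 85 and 3.46 to 6.63 CPM. All 24 Hox genes tested were below the filter in the DKO, and 22 rose. Hoxa3 measured 3.84, 2.92 and 2.92 CPM and Hoxa5 2.6, 1.86 and 2.14 CPM in the TKO, both with no counts in the DKO. Hoxd10 measured 4.79, 5.49 and 6.22 CPM in the TKO libraries and 0, 0 and 0.0974 CPM in the DKO libraries.

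Among 1410 olfactory receptor genes, 292 to 322 were detected in the TKO and 146 to 148 in the DKO. Their summed level was 376 to 401 CPM against 64.4 to 68.7. Of the 19 that reached the filter in the DKO 15 rose and 1 fell. Vomeronasal receptors summed to 195 to 223 and 37.4 to 40.3 CPM, of which Vmn2r27 alone gave 99.5, 92.9 and 108 CPM in the TKO and 9.48, 8.61 and 9.2 CPM in the DKO. Clustered protocadherins, cell surface proteins of neurons, summed to 143 to 149.6 and 64.3 to 73.2 CPM, with 8 rises and 0 falls among 17 that reached the filter in the DKO. The Rhox, Prame and Tdpoz families had 3, 2 and 1 rises among 5, 4 and 1 members tested, and none fell by edgeR or DESeq2 or at an unadjusted p under 0.05. Of these, 2 Rhox, 1 Prame and the only Tdpoz member were below the filter in the DKO, and of the 3 Rhox and 3 Prame members that reached it 1 each rose.

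**Figure D3:**
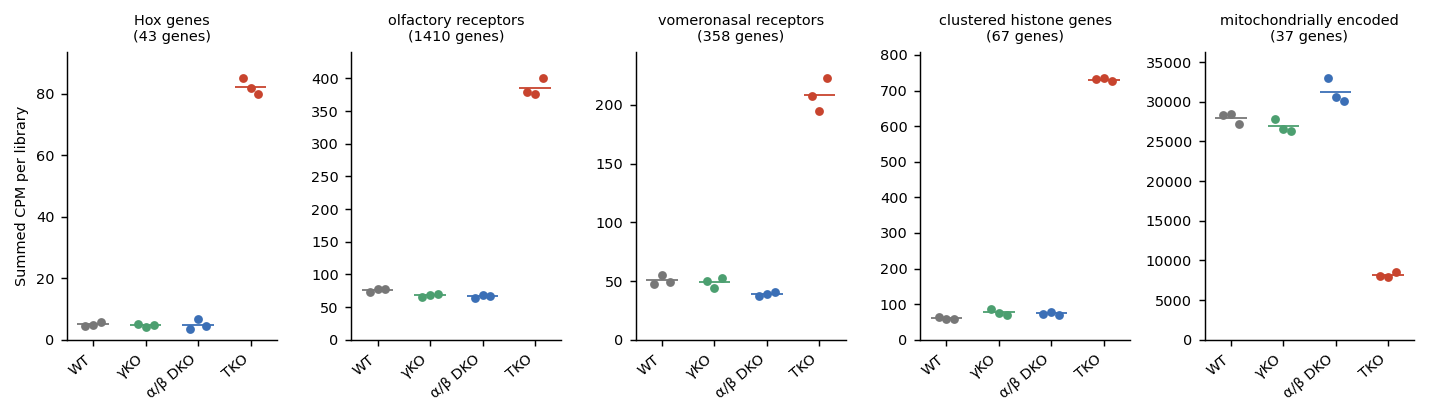
Points are the summed CPM of all annotated members of a gene family in each library of WT, γKO, α/β DKO and TKO, with a bar at the group mean and each axis starting at 0. The Hox, olfactory, vomeronasal and clustered histone genes are high in the 3 TKO libraries alone, and the mitochondrially encoded genes are low in the same libraries.

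Histone genes of the replication-dependent clusters, whose mRNAs end in a stem-loop and carry no poly(A) tail, were higher by an order of magnitude. Summed over 67 genes they measured 726 to 735 CPM in the TKO, 71 to 79 in the DKO, 69.5 to 86.7 in the γKO and 58.8 to 64.6 in WT. Of the 26 that reached the filter in the DKO, 22 rose and none fell by edgeR or DESeq2 or at an unadjusted p under 0.05. H1f5 measured 66.2, 68.6 and 69.7 CPM in the TKO libraries and 1.07, 1.51 and 1.02 CPM in the DKO libraries, and H2ac1 9.64, 10.02 and 11.7 CPM in the TKO libraries and 0.213, 0.172 and 0 CPM in the DKO libraries. The other histone genes, mostly polyadenylated variants, summed to 2583 to 2693 and 2158 to 2237 CPM. This split of the family was made after its values were seen.

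Of 10 other listed RNAs without a poly(A) tail only 2 could be tested, both at low levels, and neither was called higher. Levels this low say little about such RNAs as a class. Rn7sk measured 2.69, 1.96 and 1.69 CPM in the TKO libraries and 1.28, 3.01 and 1.12 CPM in the DKO libraries and did not pass (log2 fold change 0.19 ± 0.36 (SE), adjusted p = 0.631), and Rpph1, the RNA of ribonuclease P, fell (-1.51). The 7 found of the 10 listed such RNAs summed to 3.32 to 4.11 CPM in the TKO and 3.02 to 7.32 CPM in the DKO. The mitochondrial ribosomal RNAs are not in that list. Of these, mt-Rnr1 measured 255, 238 and 256 CPM in the TKO libraries and 251, 241 and 227 CPM in the DKO libraries. It did not pass, nor did mt-Rnr2 (-0.52). For all libraries the labels name a TruSeq RNA kit and the study's methods a total RNA kit. Which of these fits the TKO and DKO libraries, and the part of RNA selection in these values, was not tested.

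Zinc finger genes named Zfp, many of which encode KRAB repressors that recruit H3K9 methylation, leaned higher. Of 394 tested, 134 rose and 33 fell (median 0.60), and nearly all (380) had reached the filter in the DKO. Their summed level was 17221 to 18039 CPM in the TKO and 12076 to 12483 CPM in the DKO. Zfp612 measured 44.8, 44.4 and 43.8 CPM in the TKO libraries and 2.77, 2.67 and 2.39 CPM in the DKO libraries and Zfp938 73.5, 73.8 and 81.3 CPM in the TKO libraries and 5.97, 5.47 and 5.7 CPM in the DKO libraries. Zfp872 went the other way, with 0.0457, 0.151 and 0.206 CPM in the TKO libraries and 1.81, 2.88 and 2.19 CPM in the DKO libraries (log2 fold change -4.04 ± 0.47 (SE), adjusted p = 8.40e-07).

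The H3K9 methylation genes themselves moved within the fold threshold for the most part. Of 6 H3K9 methyltransferases only Ehmt1 (GLP) was called, at 59.9, 54.3 and 51.8 CPM in the TKO libraries and 129, 128 and 131 CPM in the DKO libraries (log2 fold change -1.24 ± 0.05 (SE), adjusted p = 2.08e-12). Its partner Ehmt2 (G9a) was at -0.77, Setdb1 at -0.40, Suv39h1 at -0.21, Suv39h2 at 0.78 and Setdb2 at 0.92. Among 12 cofactors of SETDB1 and H3K9 methylation no gene was called by edgeR or DESeq2, although 4 were higher and 6 lower at an unadjusted p under 0.05 (median -0.26). Zfp809 (0.06) and Mphosph8 (-0.10) moved least. The demethylase Kdm4d, active in testis, measured 3.2, 3.93 and 4.2 CPM in the TKO libraries and 0, 0.258 and 0 CPM in the DKO libraries (log2 fold change 5.21 ± 0.54 (SE), adjusted p = 2.18e-07), whereas Kdm4a (-1.57) and Kdm7a (-1.01) fell and Phf8 (0.02) and Jmjd1c (-0.05) did not pass.

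DNA methylation genes leaned lower. Dnmt3b measured 197, 199.98 and 198 CPM in the TKO libraries and 676, 650.1 and 674 CPM in the DKO libraries (log2 fold change -1.76 ± 0.03 (SE), adjusted p = 5.73e-17) and the maintenance enzyme Dnmt1 186, 176 and 177 CPM in the TKO libraries and 424, 426 and 436 CPM in the DKO libraries (log2 fold change -1.27 ± 0.03 (SE), adjusted p = 7.89e-15). Zfp57 (-1.49), which guards imprints, and Tet1 (-1.32) fell, and the dioxygenase Tet3 rose, from 10.9, 10.6 and 12.4 CPM in the DKO to 43.2, 40.6 and 43.7 CPM in the TKO (1.9). Tdg (0.03) and Hells (-0.04) did not pass, which left 4 falls and 1 rise among 11 tested. Imprinted genes had 10 falls and 3 rises among 23 (median -0.83). The maternally expressed Meg3, Rian and Mirg of one chromosome 12 cluster fell together, at -2.09, -2.24 and -2.08, and so did Igf2 (-2.04) and Nnat (-2.04). Airn rose (2.45), as did, named after their values were seen, Igf2r (1.23), which it overlaps in antisense, and Usp29 (1.15), while Snrpn (0.03) and Plagl1 (-0.31) did not pass.

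Cell cycle genes changed in part. The D-type cyclins, which couple mitogens to the G1 phase, all fell: Ccnd1 measured 24.7, 24.9 and 25.5 CPM in the TKO libraries and 116, 127 and 115 CPM in the DKO libraries (log2 fold change -2.27 ± 0.06 (SE), adjusted p = 2.47e-15), Ccnd2 was at -1.65 and Ccnd3 at -1.29. Ccne1 (-1.22) fell and the CDK4/6 inhibitors Cdkn2c (1.78) and Cdkn2a (1.44) rose, with E2f1 (-0.08) and Cdk4 (-0.16) not passing. The replication and mitosis list had 3 falls among 18, Ccnb2 (-1.09), Pcna (-1.06) and, at the threshold, Aurkb (-1.005), and no rise by edgeR or DESeq2, with 8 members higher at an unadjusted p under 0.05. Plk1 (0.02) and Mcm3 (-0.05) moved least, and the list summed to 5979 to 6012 CPM in the TKO and 5884 to 6030.4 CPM in the DKO.

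Of 20 p53 targets 5 rose, a share close to that of all genes, and none fell by edgeR or DESeq2, with 4 lower at an unadjusted p under 0.05. The ubiquitin ligase Mdm2 measured 431, 423 and 434 CPM in the TKO libraries and 147, 145 and 147 CPM in the DKO libraries (log2 fold change 1.54 ± 0.03 (SE), adjusted p = 4.11e-16), and Fas (2.54), Plk2 (1.49), Phlda3 (1.36) and Eda2r (1.25) rose too. Aen (0.02) and Gdf15 (-0.05) did not pass. In the apoptosis list 4 of 18 fell, the BH3 proteins Bmf (-1.79) and Bcl2l11 (-1.1), Casp9 (-1.26) and, at the threshold, the survival factor Mcl1 (-1.004). None rose by edgeR or DESeq2, with 3 higher at an unadjusted p under 0.05, and Bid (-0.01) did not pass.

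Metabolic genes under hypoxia-inducible factors fell as a block. Of 16 tested, 14 fell (median -2.27) and none rose by edgeR or DESeq2 or at an unadjusted p under 0.05. Bnip3, a mitophagy receptor, measured 10.5, 11.6 and 9.96 CPM in the TKO libraries and 152, 146 and 141 CPM in the DKO libraries, a fall of 13.9-fold (log2 fold change -3.8 ± 0.06 (SE), adjusted p = 3.03e-17). Vegfa measured 6.8, 6.85 and 6.34 CPM in the TKO libraries and 58.1, 57.5 and 61.8 CPM in the DKO libraries (log2 fold change -3.16 ± 0.07 (SE), adjusted p = 1.76e-15). Ndufa4l2 measured 0.137, 0.252 and 0.0412 CPM in the TKO libraries and 10.4, 14.8 and 14.3 CPM in the DKO libraries (log2 fold change -6.55 ± 0.31 (SE), adjusted p = 9.27e-12).

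Glycolytic enzymes at high levels fell too. Aldoa measured 308, 326 and 305 CPM in the TKO libraries and 1788, 1821 and 1812 CPM in the DKO libraries (log2 fold change -2.55 ± 0.03 (SE), adjusted p = 1.39e-18), the glucose transporter Slc2a1 was at -2.42 and Pdk1, which diverts pyruvate from mitochondria, at -2.71. Adm (-0.17) and Car9 (0.37) did not pass. In the γKO 3 of 16 members fell, where 3.55% of all genes did, with a median of -0.18. The interaction was called lower for 11 of 16, where 15.4% of all genes were.

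Mitochondrially encoded transcripts took 0.8997 to 0.97% of the counts in the TKO and 2.87 to 3.14% in the DKO, with γKO and WT libraries between 2.5 and 2.75%. Of 15 such genes tested 13 fell (median -2.24). mt-Nd2, a subunit of complex I, measured 189, 186 and 213 CPM in the TKO libraries and 1232, 1179 and 1121 CPM in the DKO libraries (log2 fold change -2.6 ± 0.05 (SE), adjusted p = 1.19e-16). mt-Co3 scattered within both groups, with 0, 55.4 and 0.124 CPM in the TKO libraries and 66.1, 135 and 488 CPM in the DKO libraries (log2 fold change -3.74 ± 0.87 (SE), adjusted p = 0.001). Reads of these genes can also match nuclear copies of mitochondrial DNA, so their assignment is uncertain. Nuclear genes for oxidative phosphorylation had a median of -0.42. Of 80 tested 8 fell (10%), a smaller share than the 18.9% of genes that reached the filter in the DKO. Of these 8, Ndufa4l2, Cox6b2 (-1.97) and Cox7a2l (-1.54) fell most. Cytosolic ribosomal protein genes had a median of -0.75, with 13 falls and 3 rises among 81. The share that fell (16%) was that of all genes tested (16.0%). Of the 80 that reached the filter in the DKO, 13 fell and 2 rose, against falls of 18.9% among such genes. DESeq2 called 9 falls. At an unadjusted p under 0.05 by edgeR, 74 ribosomal protein genes were lower and 6 higher, against 6937 and 7285 of all 17425 genes tested. In glutathione transferases 8 of 19 fell, led by Gstm3 (-2.58).

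Genes of adhesion and of the epithelial-mesenchymal transition (EMT) went both ways. Of 15 listed 4 rose, the EMT factors Zeb1 (6.18, 6.24 and 5.6 CPM in the DKO, 32.1, 34.9 and 36.1 CPM in the TKO, 2.5), Zeb2 (3.01), Snai2 and Snai1. Another 5 fell, among them the splicing factor Esrp1 (-1.85), which marks epithelia, and fibronectin, Fn1 (-2.09), while E-cadherin, Cdh1, measured 507, 502 and 503 CPM in the TKO libraries and 602, 589.9 and 601 CPM in the DKO libraries and did not pass (log2 fold change -0.26 ± 0.03 (SE), adjusted p = 1.94e-07), nor did Tjp1 (0.05). Laminin and collagen genes had 3 and 10 rises and 3 and 13 falls, and their summed levels were 571 to 578 and 213 to 218 CPM in the TKO against 1192 to 1206 and 725 to 738 CPM in the DKO. Integrins had 6 rises and 3 falls among 25, keratins 7 and 4 among 16, and guidance genes (Sema, ephrin and slit) 17 and 23 among 66. In the actin list Actg2 (2.67) and Myl9 (1.97) rose and Acta2 (-1.82), Tpm2 (-1.63), Acta1 (-1.19) and Actn1 (-1.08) fell, which with Ankrd1 (1.02), named after its value was seen, made 3 rises and 4 falls among 14, and Srf (0.07) and Zyx (0.000) did not pass.

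Transporters of the Slc family had 52 rises and 67 falls among 273. Interferon-response genes were too low for 7 of 16 to be tested, and the other 9 split into 3 rises, Mx2 (4.07), Oasl1 (3.12) and the RNA sensor Ddx58 (1.5), and 3 falls, Zbp1 (-6.45), Oasl2 (-2.49) and Irf1 (-1.06). Irf7 (0.46) did not pass.

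ESCs were grown on fibroblast feeders that the study removed before RNA extraction, so markers of fibroblasts were checked. The 16 markers summed to 19.7 to 22.5 CPM in the TKO, 66 to 75.7 in the DKO and 69.2 to 72.2 in WT. Among the 10 tested 7 fell, led by Col1a1 (-3.45), Twist2 (-3.18), Thy1 (-2.83) and Col1a2 (-2.22), and Col3a1 rose (3.2). Lum, Dcn, Postn, Prrx1, Fap and Dpt were below the filter, with Fap at 0 in all 12 libraries. Pdgfrb (-0.83) and Lox (-0.35) did not pass. The part of feeder cells in the step was not tested, and the TKO libraries had the lower fibroblast levels.

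The largest rises among protein-coding genes averaging 5 CPM or more in the TKO were of genes the DKO libraries hardly held. Apol7c measured 16.1, 19.2 and 19.8 CPM and Cntnap4, a neuronal adhesion protein, 13.7, 15.7 and 17.6 CPM in the TKO, with no counts in the DKO, which makes them at least 126-fold and 108-fold higher. The olfactory receptor Olfr1510 (at least 54.9-fold), the heat and capsaicin channel Trpv1 (52.7-fold) and Gm21149 (41.5-fold) had no DKO counts either. The pheromone receptor Vmn1r9 had 1246 counts in the TKO and 1 in the DKO, or 1179.8 times the DKO level (95% exact interval 211 to 46638, counting error only). Fam83a measured 18.8, 20.5 and 23.7 CPM in the TKO libraries and 0, 0.0861 and 0.0487 CPM in the DKO libraries, and its ratio was 440.3 times the DKO level (95% exact interval 150.4 to 2138, counting error only). St18, Cdhr2, Cib4 and Ppargc1a, the coactivator of mitochondrial biogenesis, had 1 to 3 counts in the DKO and TKO means of 8.8, 14.6, 19.6 and 8.11 CPM.

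Among falls from an average of 5 CPM or more in the DKO stood mt-Nd3 first, with no counts in the TKO against 7.03, 14.3 and 19.3 CPM in the DKO, at least 98.7-fold lower. Trh, which encodes thyrotropin-releasing hormone, measured 3.52, 4.94 and 1.93 CPM in the TKO libraries and 167, 169 and 175 CPM in the DKO libraries (log2 fold change -5.67 ± 0.13 (SE), adjusted p = 1.24e-15). Pck2, the mitochondrial PEP carboxykinase, measured 4.84, 4.18 and 4.12 CPM in the TKO libraries and 89.1, 88.4 and 89.9 CPM in the DKO libraries (log2 fold change -4.36 ± 0.07 (SE), adjusted p = 3.73e-17), and Igfbp2 27.9, 31.5 and 26.3 CPM in the TKO libraries and 383, 387 and 402 CPM in the DKO libraries (log2 fold change -3.79 ± 0.05 (SE), adjusted p = 7.11e-18). Gbp2 (-4.75), A2m (-4.11), Ly6g6e (-4.1) and the chemokine Cxcl12 (-3.92) completed the 12 largest falls with the Lefty genes, Ndufa4l2 and Bnip3.

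Loss of HP1γ was then read with HP1α and HP1β present, in the γKO, a constitutive CRISPR mutant not made with Cre. In the γKO against WT, 323 genes rose and 561 fell of 15823 tested (5.59%), and without chromosome 16, treated below, these were 314 and 506. The comparisons share no library. Over 15522 genes tested in both, the SD of log2 fold changes was 1.35 for the step to TKO and 0.51 for the γKO, and across genes, which are not independent replicates, Pearson's r was -0.07. The 102 genes that rose in both were 3.57% of the step's rises and 33.3% of the γKO's. The 93 that fell in both were 3.38% of the step's falls and 17.9% of the γKO's. Over all 15522 genes, 2855 rose and 2751 fell in the step, and 306 rose and 520 fell in the γKO. The shared falls were thus close to the share over all these genes. In opposite directions went 211 that rose in the step and fell in the γKO, and 79 that fell in the step and rose in the γKO.

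**Figure D4:**
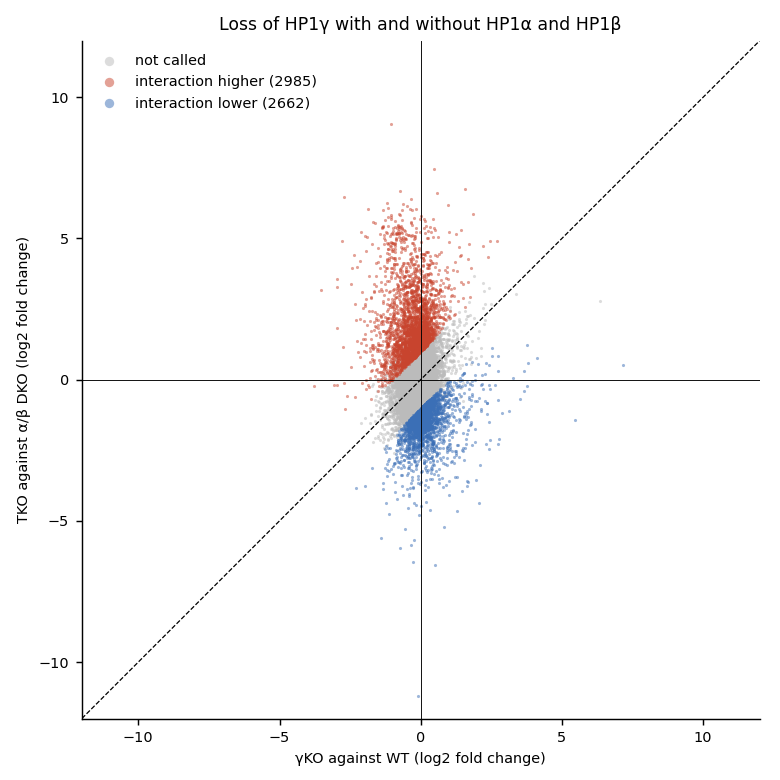
Each point is 1 gene, with the log2 fold change of γKO against WT on the x axis and of TKO against α/β DKO on the y axis; the dashed line marks equal changes. Red and blue points have an interaction term called higher or lower. The points spread far more along the y axis, with an SD of 1.35 against 0.51.

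The interaction term, the step from DKO to TKO less the change from WT to γKO, was called for 6816 of 18036 genes (37.8%). Of these, 4040 were higher and 2776 lower with α and β absent. The term holds the difference in cell lines and Cre transfection as well as that in background. Otx2 measured 6.39 ± 1.12, 24.5 ± 1.24, 25.5 ± 1.23 and 2.17 ± 0.497 CPM (mean ± SD, n = 3) in WT, γKO, DKO and TKO. It went up with γ loss in WT cells and down in the DKO, an interaction of -5.5 ± 0.18 (SE). Notum had the same form, with 10.6 ± 0.71, 32.9 ± 0.701, 13 ± 1.92 and 1.1 ± 0.152 CPM and an interaction of -5.21. For Lefty1 (-5.22), Lefty2 (-4.72) and Trh (-5.42) the γKO levels were below WT as well, by far less than the step.

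On the higher side, 4932415D10Rik measured 48.4, 43.8 and 49.6 CPM in the TKO and means of 0.168, 0.0813 and 0.147 CPM in DKO, γKO and WT. Rhoj, a small GTPase, measured 9.82, 5.34 and 7.66 CPM against means of 0.0752, 0.108 and 0.767. Hoxa11, Serpinf2, Pigz and Epha6 had TKO means of 5.35, 9.94, 8.27 and 5.61 CPM and at most 0.42 CPM in the other 3 groups. Interaction terms of genes with no counts in a group depend on those zeros and are not bounds.

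The called genes were not spread evenly over chromosomes. Chromosome 8 had a median log2 fold change of 0.49 over 923 genes, 0.48 above the other chromosomes, with 33.3% risen and 5.63% fallen. Chromosome 6, which holds the HoxA cluster, Vmn1r9, Vmn2r27, Stk31 and Nanog, had 0.35 and chromosome 13, with the largest histone cluster, 0.23. The other autosomes and X lay between -0.16 and 0.15. Without the genes of chromosome 8 the step had 4124 rises and 2728 falls. Cntnap4 and Zfp612, named above, are on chromosome 8. The number of chromosome copies was not measured here.

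Chromosome 16 was low by 0.51 in the γKO against WT (median log2 fold change -0.51) and by a median of -0.42 in the DKO against WT, and was at 0.12 in the step from DKO to TKO. The WT libraries thus stood apart there, and interaction terms of chromosome 16 genes such as Epha6 and Pigz include that difference. Leaving out chromosomes 8 and 16 gave 3561 higher and 2696 lower interaction terms.

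**Figure D5:**
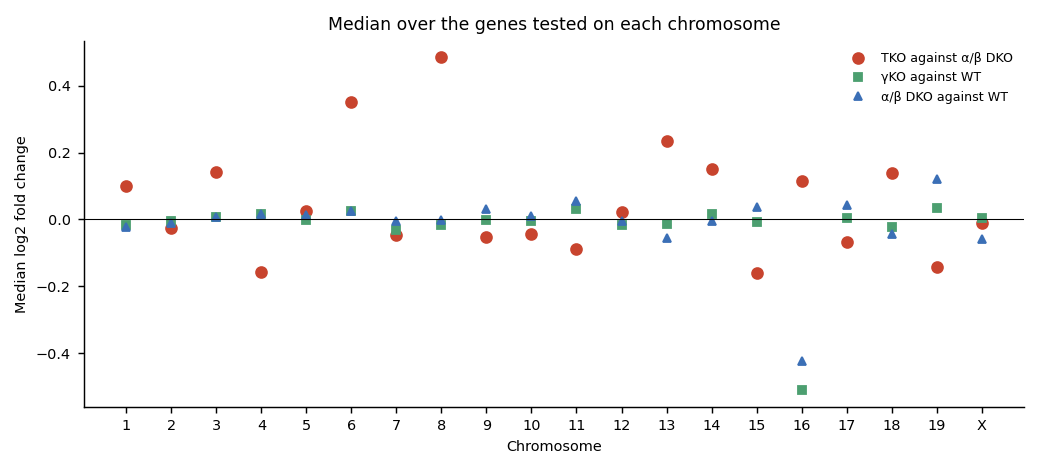
Points give the median log2 fold change over the genes tested on each chromosome for TKO against α/β DKO (circles), γKO against WT (squares) and α/β DKO against WT (triangles). Chromosome 8 stands at 0.49 for the step to TKO, and chromosome 16 at -0.51 and -0.42 for the comparisons with WT.

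By annotation, rises over all genes tested were densest outside protein-coding genes. These counts include genes that mostly entered the test through their TKO counts, and were not repeated for genes that reached the filter in the DKO. The part of level or of the filter in them was not tested. Of 563 lincRNAs 332 rose and 51 fell (median 1.54), of 444 antisense genes 226 and 41 (1.15), and of 437 processed pseudogenes 199 and 73 (0.73). The 14896 protein-coding genes had 3166 rises and 2484 falls and a median of -0.06. Level and direction went together. With genes grouped by their WT level, 69 of 2335 genes over 100 CPM rose and 562 fell, while of 4552 genes at 1 to 10 CPM 1410 rose and 779 fell. Lower genes mostly passed the filter through the TKO and are not compared. Exonic length made little difference, with 27.7% risen among the shortest of 5 equal groups of genes and 22.4% among the longest. Reads of an antisense gene and its partner can be told apart only if counting used strand, which the sources used here do not state.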

How the data were processed

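The authors aligned reads to GRCm38.p5 with TopHat2 2.1.1 and deposited estimated counts per gene from RSEM, per the labels and file headers. Their TPM columns (30), fold changes, p-values and other tables were not used here. Groups came from the genotype labels. Estimated counts of 55487 genes were rounded to whole numbers. Genes passing filterByExpr (minimum count 10) were scaled by TMM and tested with edgeR 4.0.16 (quasi-likelihood, R 4.3.3, limma 3.58.1, no covariates) within each pair of groups, or in all 4 groups for the interaction. Genes were called at Benjamini-Hochberg adjusted p under 0.05 and absolute log2 fold change over 1, and DESeq2 1.42.0 was an alternative. A floor of 3 counts per library bounded folds against 0, and exact intervals cover counting error only. Replicates differed by more than sampling noise. The labels name no separate cultures, while the study describes biological replicates of each sample and independent experiments for the Cre-transfected cells. The p-values measure the spread between libraries. The scripts were tested on simulated data.

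The members and gene lists were chosen with earlier results of these data known. Named were the HP1 genes, all core pluripotency, endoderm and H3K9 methyltransferase members, the 6 largest called and 2 smallest changes of other lists, the 12 largest rises and falls and the 8 largest interaction terms each way (protein coding, mean of at least 5 CPM, groups apart). Some genes that this rule takes in are not reported here. Genes of families are examples. Gene models were those of GENCODE M21, promoters those of RefSeq.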

Additional observations from a re-analysis of the deposited data

Results flagged for a closer look

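The change from DKO to TKO differed from that from WT to γKO for 4040 genes on the higher side and 2776 on the lower. This was by edgeR's test of the interaction, called where the adjusted p was under 0.05 and the term over 1 in size. Background, cell line and Cre transfection cannot be told apart in these terms. The largest terms on the higher side were Epha6 (12.50), Cntnap4 (10.74), Pigz (10.40), Cib4 (10.21), Serpinf2 (9.23), Rhoj (9.20), Hoxa11 (9.15) and 4932415D10Rik (8.99). Their counts were at or near 0 in some of the other groups, so these terms depend on how zeros were handled. Epha6 and Pigz lie on chromosome 16, where the WT libraries stood above the mutants. The largest terms on the lower side were mt-Nd3 (-11.09), Ndufa4l2 (-7.05), Otx2 (-5.50), Trh (-5.42), Lefty1 (-5.22), Notum (-5.21), Ly6g6e (-5.10) and Lefty2 (-4.72). mt-Nd3 had no counts in the TKO. With total counts alone the terms split into 5010 higher and 1820 lower.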

How the results depend on the processing

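Of the step's 7211 calls, DESeq2 shared 6964. Dropping the fold threshold gave 14048 calls (7196 higher, 6852 lower) and 12605 interaction terms (6335 and 6270). Requiring 10 counts in every library before scaling gave 4649 calls, 2642 higher and 2007 lower, and moved the median over shared genes by 0.11 on the log2 scale, as upper-quartile scaling did by 0.10 and total counts alone by 0.28. With total counts 5327 rose and 1812 fell, and 5010 interaction terms were higher and 1820 lower. Chosen after seeing the data were counts over genes reaching the filter in all DKO libraries (2289 higher), averaging 5 CPM or more in the higher group (4356 calls, 2190 higher), with at least 10 counts in every library at unchanged scaling (4767 calls, 2345 higher, and 2338 higher interaction terms), over protein-coding genes, and without chromosomes 8 or 16. Leaving out 1 library gave 7278 to 7685 calls and 6692 to 6860 interaction terms. Above the other chromosomes, chromosome 8 stood by 0.48 (0.50 with 10 counts in every library, 0.46 to 0.49 with 1 library left out), chromosome 6 by 0.33 (0.21, 0.34 to 0.35) and chromosome 13 by 0.21 (0.14, 0.19 to 0.26). Deviations of same-numbered TKO and DKO libraries correlated at -0.03 to -0.01, so the numbers do not pair them; with the number as a replicate block 7145 genes were called (4381 higher, 2764 lower), as were 6690 interaction terms, and among named genes the calls lost were Elf5 (1.17) and Tfap2a (1.2).

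Among 276 named genes, no called gene changed direction, and 33 lost a call under some alternative, 19 of them with total counts and 22 when the fold threshold was part of the test. Leaving out 1 library crossed the threshold for these log2 fold changes: without TKO replicate 1 Aurkb (-0.99), Elf5 (1.17), Kdm7a (-0.99) and Mcl1 (-0.99), without TKO replicate 2 Elf5 (1.1), Kdm7a (-0.96), Meiob (-0.94), Pdgfra (0.91), Ring1 (-0.99) and Tfap2a (1.08), without TKO replicate 3 Ankrd1 (0.79), Aurkb (-0.99), Elf5 (1.21), Ring1 (-0.88) and Tfap2a (1.08), without DKO replicate 1 Kdm7a (-0.96), Lama1 (-1.03) and Mcl1 (-0.996), without DKO replicate 2 Elf5 (0.93), Pdgfra (0.87), Ring1 (-0.996) and Tfap2a (0.88), without DKO replicate 3 Ankrd1 (0.68), Aurkb (-0.99), Elf5 (1.22), Pdgfra (0.99) and Tfap2a (1.09) (Lama1 gained a call, the others lost one). Genes that were not called turned sign as follows. With DESeq2 they were Bid at 0.021. With RLE size factors they were Bid at 0.021. With all groups fitted together they were Bid at 0.0059. With 10 counts in every library they were Bid at 0.10, Bmp7 at 0.076, Cdx2 at 0.034, E2f1 at 0.029, Gdf15 at 0.057, Hells at 0.073, Jak1 at 0.037, Jmjd1c at 0.067, L3mbtl2 at 0.067, Mcm3 at 0.058, Mphosph8 at 0.012 and Nkd1 at 0.011. With no filter they were Aen at -0.020, Ascl2 at -0.0011, Bmpr1a at -0.027, Phf8 at -0.018, Plk1 at -0.020, Snrpn at -0.0039, Tdg at -0.0037 and Zyx at -0.036. With total counts they were Adm at 0.10, Bid at 0.27, Bmp7 at 0.24, Cdh1 at 0.017, Cdk4 at 0.12, Cdx2 at 0.19, E2f1 at 0.19, Fgfr1 at 0.047, Gdf15 at 0.22, Grhl2 at 0.15, Hells at 0.24, Jak1 at 0.20, Jmjd1c at 0.23, L3mbtl2 at 0.23, Mcm3 at 0.22, Mphosph8 at 0.18, Nkd1 at 0.18, Smad4 at 0.12, Stra8 at 0.093 and Suv39h1 at 0.063. With upper-quartile scaling they were Bid at 0.093, Bmp7 at 0.064, Cdx2 at 0.015, E2f1 at 0.017, Gdf15 at 0.047, Hells at 0.060, Jak1 at 0.025, Jmjd1c at 0.055, L3mbtl2 at 0.055 and Mcm3 at 0.047. With 1 library left out the ranges were Adm -0.38 to 0.11, Aen -0.029 to 0.024, Ascl2 -0.043 to 0.11, Axin2 -0.065 to 0.14, Bid -0.076 to 0.021, Bmpr1a -0.028 to 0.021, Dab2 -0.12 to 0.36, Gdf15 -0.27 to 0.10, Kdr -0.14 to 0.63, Phf8 -0.041 to 0.035, Plk1 -0.018 to 0.022, Rn7sk -0.089 to 0.79, Snrpn -0.0056 to 0.048, Tbx6 -0.87 to 0.057, Tdg -0.0078 to 0.045, Zyx -0.11 to 0.036 and mt-Rnr1 -0.017 to 0.074. Of 1088 list counts compared over all alternatives 108 moved by over 1.5 times, 33 of them without the fold threshold. What caused these moves was not tested beyond the construction of each alternative. Genes under about 10 counts per library limit what the depth can show.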
